A study of Homo sapiens with 9 samples.

Results

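SiREV1#1 and SiREV1#2 are a pair of small interfering RNAs (siRNAs) against REV1, and the comparison described here sets the transcriptomes of cells given either of them directly against each other. A549 is a human lung adenocarcinoma cell line of epithelial origin. RNA was sequenced from cells that had been transfected 48 h earlier with scramble siRNA, SiREV1#1 or SiREV1#2, with 3 libraries per group, and the 6 libraries of the REV1 siRNAs out of 9 in all were chosen by their labels. No other agent was recorded for any group, and all 9 libraries share the transfection itself.

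REV1 is a Y-family polymerase and scaffold of translesion synthesis (TLS), the error-prone process by which DNA replication passes damaged bases. An siRNA duplex is loaded into an Argonaute protein, which keeps the guide strand and cleaves a transcript that pairs with it along its length. Guides also lower other transcripts that pair only with the seed, the bases near the guide's 5′ end, much as a microRNA does. For this reason a pair of siRNAs with different sequences against the same gene is a common control: they share the target but not the seed.

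The siRNAs pair with separate places in the coding sequence of REV1. The SiREV1#1 site lay in exon 18 of 23 of transcript REV1-201, at chr2:99404474-99404492 of GRCh38 on the minus strand. The SiREV1#2 site crossed an exon junction, with 1 base in exon 4 at position 99449336 and the other 18 in exon 5 at chr2:99442452-99442469, also on the minus strand. Both are shown 5′ to 3′ as DNA because the sites are what distinguishes the reagents, and the capitals mark the 7 bases opposite bases 2 to 8 of the guide.
SiREV1#1 site in REV1: gaacagtgacgCAGGAATa
SiREV1#2 site in REV1: gcatcaaagctGGACGACt
Neither 19-base site occurred in a transcript of another gene among the 206694 transcripts of GENCODE release 29.

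REV1 itself was the shared feature of the groups. Its FPKM (fragments per kilobase of transcript, scaled to the mapped fragments of the library) was 2.60, 2.92 and 3.36 in replicates 1 to 3 after SiREV1#1, 3.62, 3.36 and 3.18 after SiREV1#2, and 7.23, 7.90 and 8.44 after scramble siRNA. The values of the siRNA groups overlapped, and all 6 lay below every scramble library. On the log2(FPKM + 1) scale REV1 differed between the siRNAs by -0.15 (SE 0.11, adjusted p = 0.32 by limma), with an exact two-sided permutation p = 0.3 where 3 against 3 libraries cannot go below 0.1. Against scramble the limma difference was -1.16 for SiREV1#1 (adjusted p = 0.00069) and -1.01 for SiREV1#2 (adjusted p = 0.0022). Of the 10 genes that the study chose because both siRNAs changed them, 9 were analysed, and none of the 9 passed the limma test between the siRNAs (adjusted p from 0.14 for CIDEB to 0.97 for PTPN20). Since those genes were chosen on these libraries for moving with both reagents, that count is a description. SERTAD2, a transcriptional coregulator, was at 4.18, 10.9 and 10.8 FPKM after SiREV1#1 and 2.99, 10.8 and 10.6 after SiREV1#2, against 8.90, 25.4 and 29.2 after scramble siRNA.

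Apart from SiREV1#2 replicate 3, which has no counts of its own, the libraries held 13059082 to 20166451 counted fragments. SiREV1#1 replicate 1 was the shallowest of them. Replicate 1 of every group stood apart from replicates 2 and 3 in many genes, so the replicate number was kept as a block, and FPKM were used because the deposited counts of SiREV1#2 replicate 3 repeat those of replicate 2. The 6 epithelial markers summed to between 5.68e+03 and 1.16e+04 FPKM, mostly through KRT7, KRT8 and KRT18, while EPCAM (0.73 to 2.38) and KRT19 (0.10 to 1.34) were near 0, and the 3 endothelial markers stayed under 1 FPKM in all 9 libraries. Haematopoietic markers summed to 0.59 to 6.64, through CD14 at 5.04 to 5.89 in replicate 1 of each group, and fibroblast markers to 0.26 to 1.65, with COL1A1 at 1.57 in SiREV1#1 replicate 1. Nothing in the labels says whether same-group libraries came from separate cultures, and the p-values then measure only the spread between these libraries.

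The transcriptomes differed widely between the siRNAs. Of 11429 genes with a mean FPKM over 1, 4167 (36.5%) differed at an adjusted p under 0.05, of which 1752 (15.3%) were higher and 2415 (21.1%) lower after SiREV1#1 than after SiREV1#2. Differences over 2-fold were found for 302 genes higher (2.64%) and 347 lower (3.04%), and over 4-fold for 22 and 19. The excess of lower genes depended on the scaling. Median-of-ratios scaling gave 2073 higher and 2040 lower (356 and 288 over 2-fold), and quantile normalization 1992 and 2052 (333 and 277). Of the 649 genes over 2-fold, 643 differed in the same direction in 3 of 3 same-numbered pairs and 493 had group values that did not overlap, against 2744 genes (24%) without overlap among all tested. The 649 were chosen by p and size in these same libraries, so both counts largely follow from that choice and are descriptions. Without the replicate block 595 genes passed, 256 higher and 339 lower, and of 192 genes chosen by the naming rule and called, 75 still passed. The number called moved by over 1.5 times without SiREV1#1 replicate 2 (2701) or 3 (2563) and without SiREV1#2 replicate 2 (2209) or 3 (2039), and 2880 were higher without SiREV1#1 replicate 1, whereas the counts over 2-fold stayed within that range.

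**Figure D1:**
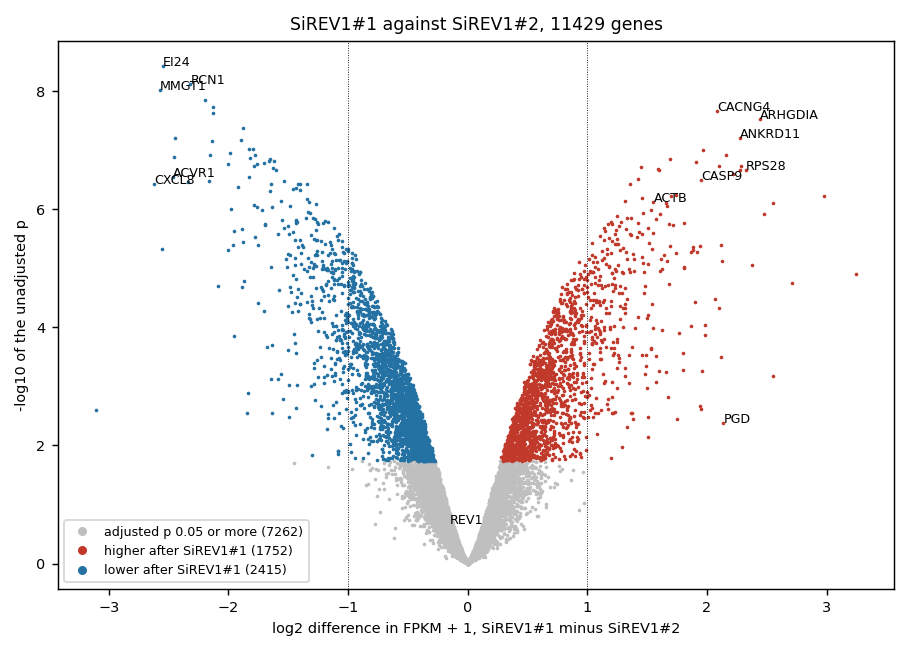
Each point is 1 of 11429 genes, with the log2 difference in FPKM + 1 (SiREV1#1 minus SiREV1#2) on the x axis and -log10 of the unadjusted limma p on the y axis. Dotted lines mark a 2-fold difference, REV1 lies near 0, and 1752 genes are coloured as higher and 2415 as lower after SiREV1#1.

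On each side the typical gene was low after 1 siRNA and nearer to the scramble level after the other. Over the 346 of 347 genes over 2-fold lower after SiREV1#1 that had an annotated 3′ untranslated region (UTR), the median log2 difference from scramble was -0.97 after SiREV1#1 and 0.27 after SiREV1#2. For the 301 of 302 genes on the other side it was 0.39 after SiREV1#1 and -0.91 after SiREV1#2. The corresponding medians over all such genes were -0.07 and 0.00. These comparisons share the scramble libraries, so the values are given side by side only.

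Among the 15 genes with the smallest p lower after SiREV1#1, several serve membranes and organelles. EI24, an endoplasmic reticulum (ER) membrane protein with a role in autophagy, was at 10.4, 9.14 and 8.88 FPKM after SiREV1#1 and at 70.9, 55.7 and 54.8 after SiREV1#2, with scramble at 70.1, 54.5 and 51.8. No library of SiREV1#1 came near the other 6, and the difference was -2.55 (SE 0.10, adjusted p = 3.6e-05 by limma). MMGT1, a subunit of the ER membrane protein complex that inserts membrane proteins, was at 1.23, 1.72 and 1.66 FPKM after SiREV1#1 and at 10.3, 16.4 and 16.3 after SiREV1#2. RCN1, a calcium-binding protein of the ER lumen, was at 19.4, 23.7 and 24.1 against 93.0, 126 and 130. Both had scramble values beside those of SiREV1#2, at 9.97, 12.5 and 12.8 for MMGT1 and 99.2, 118 and 128 for RCN1. SLC35B1, which carries ATP into the ER, differed by -1.99, and CTSB, the lysosomal protease cathepsin B, by -1.88.

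The other 10 genes of that group included mitochondrial and RNA-binding proteins. MCU, the pore of the mitochondrial calcium uniporter, was at 4.61, 4.10 and 4.30 FPKM after SiREV1#1 and 18.0, 20.1 and 18.6 after SiREV1#2. PDHX, a structural component of pyruvate dehydrogenase, and TSFM, a mitochondrial translation elongation factor, differed by -2.13 and -2.16. G3BP1, the core protein of stress granules, was at 6.36, 4.40 and 4.93 FPKM after SiREV1#1 and 38.4, 21.8 and 21.6 after SiREV1#2, while scramble libraries held 56.4, 33.5 and 34.4. G3BP1 was thus low after SiREV1#1 and also below scramble after SiREV1#2 (-0.60, adjusted p = 0.018 by limma). HNRNPA3, an RNA-binding protein whose gene has many processed copies that may share its reads, was at 21.0, 19.6 and 22.7 against 93.8, 102 and 105. VASP, which elongates actin filaments, MAPK6, an atypical MAP kinase, DYNLT3, a dynein light chain, METTL9, a histidine methyltransferase, and DESI2 completed the 15, with differences from -1.78 for DESI2 to -2.44 for DYNLT3.

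The 15 genes with the smallest p on the other side included regulators of the cytoskeleton, chromatin and the cell cycle. ARHGDIA, an inhibitor that holds small GTPases of the cytoskeleton in the cytosol, was at 254, 257 and 258 FPKM after SiREV1#1 and at 37.4, 50.3 and 52.7 after SiREV1#2, with scramble at 208, 274 and 257. The SiREV1#1 values fell within the scramble range and the SiREV1#2 values far below it, and the difference was 2.44 (SE 0.12, adjusted p = 4.2e-05 by limma). ANKRD11, a chromatin cofactor, was at 20.8, 29.4 and 28.7 against 4.68, 4.54 and 4.52. MYBL2, a transcription factor of proliferating cells, was at 54.4, 40.3 and 37.6 against 9.66, 9.23 and 9.19, and its scramble libraries held 59.9, 38.8 and 38.9. CDC34, a ubiquitin-conjugating enzyme that acts with SCF ligases, was at 34.5, 49.3 and 48.0 against 8.72, 8.11 and 7.63. LSR, a receptor and tricellular junction protein, URI1, a prefoldin-like chaperone, and PPIL1, a spliceosomal cyclophilin, differed by 2.16, 2.28 and 1.91.

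Some of these genes differed from scramble in both groups, in opposite directions. C1QTNF6, a secreted C1q-family protein, was at 36.4, 7.24 and 7.44 FPKM after SiREV1#1, 9.77, 1.14 and 0.90 after SiREV1#2 and 12.1, 2.16 and 2.07 after scramble, so that SiREV1#1 lay above scramble (1.45, adjusted p = 0.00032) and SiREV1#2 below it (-0.51, adjusted p = 0.027, both by limma). In C1QTNF6 the groups overlapped, and replicate 1 was high in all of them. Without the replicate block C1QTNF6 (adjusted p = 0.29), NREP (0.41) and DNMT3B (0.2) did not pass in limma, whereas the other 27 of the 30 genes did. NREP, SMPDL3B, a sphingomyelin phosphodiesterase-like lipid enzyme, CARM1, an arginine methyltransferase, DNMT3B, a de novo DNA methyltransferase, TTLL12 and RPS28 also lay above scramble after SiREV1#1 and below it after SiREV1#2 at an adjusted p under 0.05. DNMT3B was at 15.2, 4.39 and 4.54 after SiREV1#1 and 4.16, 0.66 and 1.03 after SiREV1#2, against 6.78, 1.78 and 2.09. CACNG4, a calcium channel subunit, fell to 0.70, 0.07 and 0.06 FPKM after SiREV1#2, where it was close to undetected in replicates 2 and 3. RPS28, a small-subunit ribosomal protein with processed copies elsewhere in the genome, was at 1394, 993 and 871 against 272, 186 and 186.

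**Figure D2:**
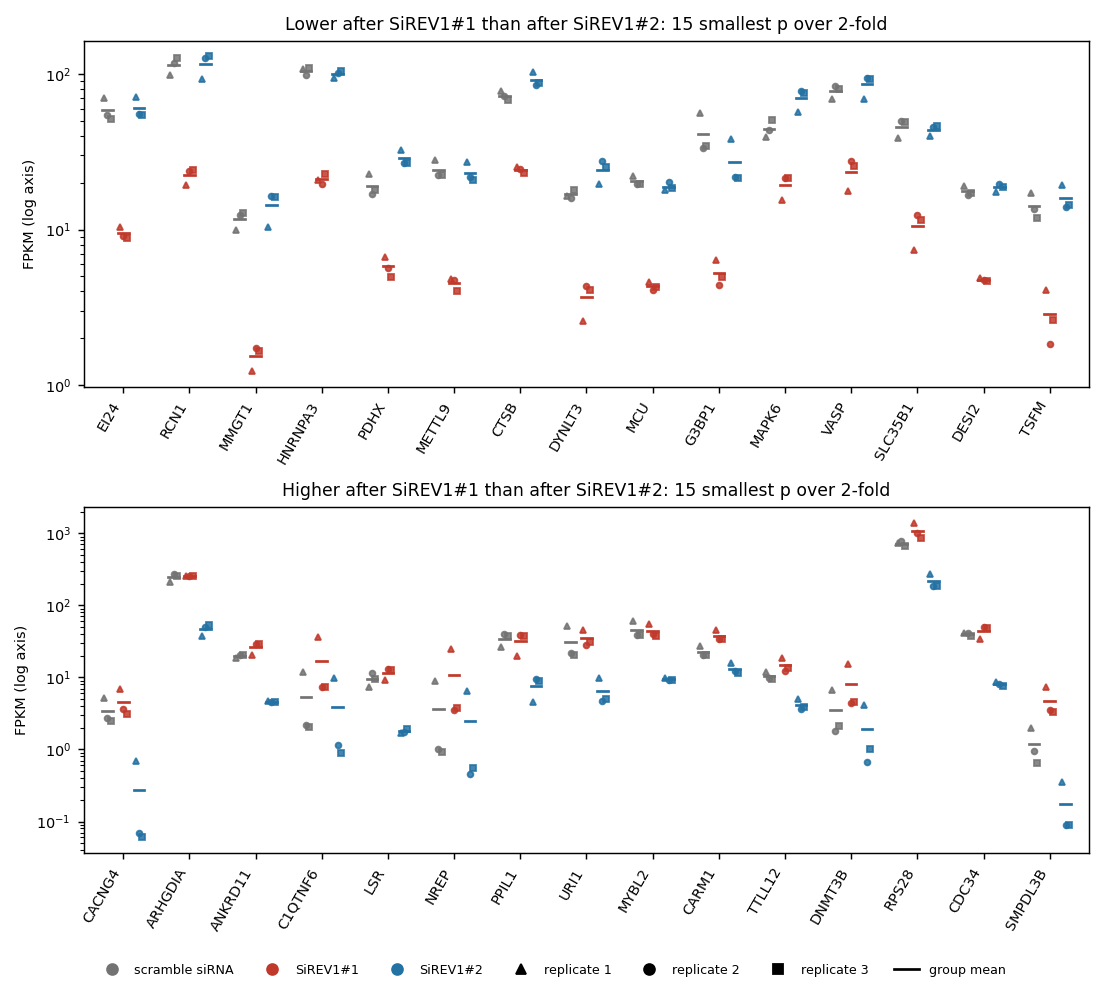
FPKM on a log axis of the 15 genes with the smallest p on each side, by library, with scramble siRNA in grey, SiREV1#1 in red and SiREV1#2 in blue, replicates as symbols and horizontal lines for group means. For EI24 the SiREV1#1 libraries sit at 8.88 to 10.4 with the other groups at 51.8 to 70.9, and for ARHGDIA the SiREV1#2 libraries sit at 37.4 to 52.7 with the other groups at 208 to 274.

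The sequences of the genes on the 2 sides differed. Seed matches were counted in the transcript with the longest annotated 3′ UTR of each gene, which was found for 11292 of the 11429 genes (98.8%), REV1 left out. The word opposite the SiREV1#1 seed, CAGGAAT, was present in the 3′ UTR of 123 of 346 genes over 2-fold lower after SiREV1#1 (35.5%, 95% Wilson interval 30.7 to 40.7). It was present in 26 of 301 genes over 2-fold higher (8.64%, 5.96 to 12.4) and in 15.6% of all genes. The word opposite the SiREV1#2 seed, GGACGAC, showed the reverse, with 27 of 301 genes (8.97%, 6.24 to 12.7) over 2-fold higher after SiREV1#1, that is, lower after SiREV1#2, 1 of 346 (0.289%) over 2-fold lower and 1.25% of all genes. Only this strand was searched, since the guide pairs with the transcript, and no test was made of these shares. GGACGAC was more frequent in coding sequences, where it stood in 128 of 301 genes (42.5%) over 2-fold higher after SiREV1#1, 6 of 346 (1.73%) over 2-fold lower and 8.87% of all genes. CAGGAAT was in the coding sequence of 80 of 346 genes (23.1%) lower after SiREV1#1, 18 of 301 (5.98%) higher and 14.9% of all.

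The difference was also read by the number of matches. The median log2 difference was -0.089 for the 10290 genes without GGACGAC in the coding sequence, 0.234 for the 890 with 1 match 0.611 for the 93 with 2, of which 65.6% were called higher after SiREV1#1, and 0.495 for the 19 with 3 or more. For CAGGAAT in the 3′ UTR the medians were -0.043 for 9531 genes without a match, -0.202 for 1461 with 1, -0.159 for 249 with 2 and -0.318 for the 51 with 3 or more. Genes with more matches also had longer 3′ UTRs, with medians of 1149 bases for genes without CAGGAAT and 2776 bases for those with 1. Among genes with a 3′ UTR of 500 to 2000 bases, the CAGGAAT share was 27.5% of those over 2-fold lower, 5% of those over 2-fold higher and 9.87% of all.

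The same counts were made for words of the scramble siRNA and of the other strands. The word for the scramble siRNA, TGTCACG, was in the 3′ UTR of 2.02% of genes over 2-fold lower after SiREV1#1, 5.98% of those higher and 3.28% of all, and in 2.89%, 3.32% and 3.47% of coding sequences. The words for the other strand of each duplex, the passenger strand, were CACTGTT for SiREV1#1, in the 3′ UTR of 26% of genes lower, 11% of those higher and 17.6% of all, and TTTGATG for SiREV1#2, in 21.7%, 13% and 17.6%. The gap in percent between the sides was narrower for CACTGTT than for CAGGAAT in the 3′ UTR and GGACGAC in the coding sequence. It was wider than that for GGACGAC in the 3′ UTR, but GGACGAC is far rarer there. That word was in 8.97% of genes higher, 0.289% of those lower and 1.25% of all, so these 2 gaps are not alike in scale. By number of matches in the 3′ UTR, the medians fell for the passenger words too, though less from 0 to 1 match than for CAGGAAT. For genes with 0, 1, 2 and 3 or more matches, the median log2 differences were -0.051, -0.117, -0.148 and -0.300 for TTTGATG. For CACTGTT they were -0.049, -0.135, -0.195 and -0.210. For CAGGAAT they were -0.043, -0.202, -0.159 and -0.318. The scramble word TGTCACG did not fall, at -0.067, -0.042 and 0.061 for 0, 1 and 2 matches, the last over 17 genes. GGACGAC rose from -0.070 without a match to 0.282 with 1. Genes with 1 match had median 3′ UTRs of 2776 bases for CAGGAAT and 2786 for TGTCACG. The cause of these medians was not tested. These passenger words were examined after the guide words had been seen.

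**Figure D3:**
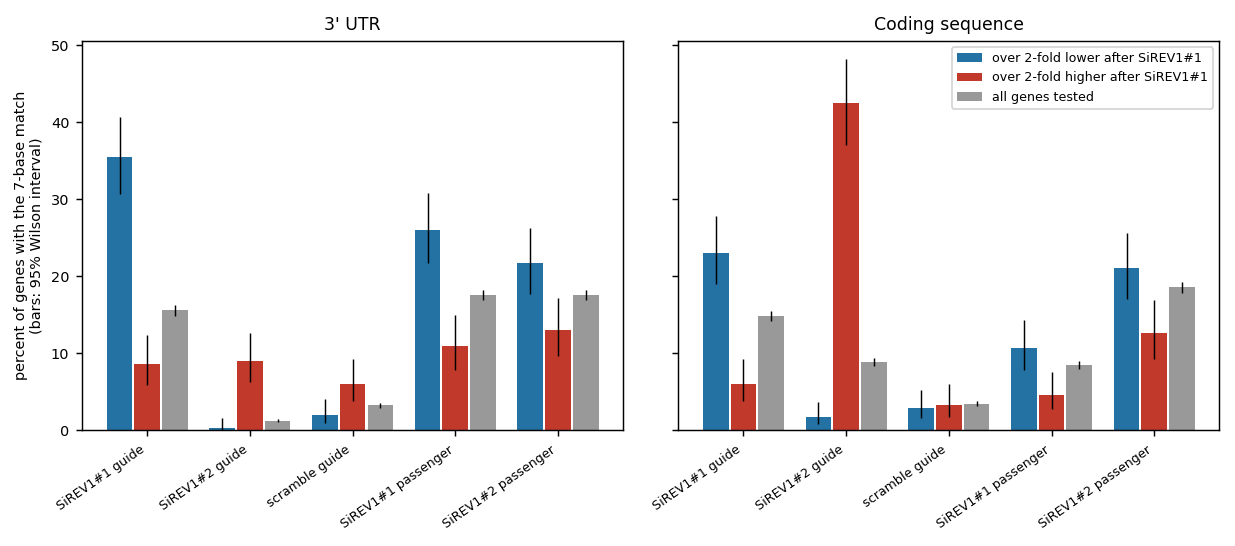
Percent of genes that hold each 7-base word in the 3′ UTR (left) or coding sequence (right), for genes over 2-fold lower after SiREV1#1 (blue), over 2-fold higher (red) and all tested (grey), with 95% Wilson intervals as error bars. The guide words of SiREV1#1 in the 3′ UTR (35.5% against 8.64%) and of SiREV1#2 in the coding sequence (42.5% against 1.73%) show the widest gaps between the sides.

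Base composition and UTR length differed between the sides as well. The median 3′ UTR was 1856 bases with 36.3% GC for genes over 2-fold lower after SiREV1#1, 1012 bases with 51.6% GC for those over 2-fold higher, and 1357 bases with 42.5% GC for all. Of the 2872 genes with the lowest transcript GC content (28.6 to 41.8%), 35.7% were called lower and 5.64% higher, whereas of the 2799 with the highest (56.7 to 74.6%) 10% were called lower and 28% higher. CAGGAAT and GGACGAC differ in GC content themselves, so the shares were also taken within these GC ranges. In the lowest range CAGGAAT was in the 3′ UTR of 40% of 165 genes over 2-fold lower after SiREV1#1 and of 22.3% of all 2872. In the highest range GGACGAC was in the coding sequence of 51% of 155 genes over 2-fold higher and of 16.6% of all 2799. Other shares came nearer to those of all genes in some ranges. From the lowest range to the highest, CAGGAAT was in the coding sequence of 29.1, 22.9, 15.6 and 7.5% of genes over 2-fold lower. Of all genes it was in 19.9, 18.6, 13.3 and 7.65%. CACTGTT was in the 3′ UTR of 32.7, 29.2, 8.89 and 10% of the genes over 2-fold lower, and of 26.9, 22.4, 14.4 and 6.47% of all. What part base composition or a library's preparation has in the difference was not tested.

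A few sites show how little of the siRNA these transcripts share beyond the seed. Each line gives 19 bases aligned to the REV1 site of that siRNA, with capitals at bases identical to REV1. The 3′ UTR sites are examples from the 15 genes with the smallest p on each side, of which 8 on the lower side and 2 on the higher side had such a match, and the coding sites of CACNG4 and LSR were likewise chosen after their values were seen.
HNRNPA3, SiREV1#1: GgtagtgGtacCAGGAATA
METTL9, SiREV1#1: tgAtttTtttcCAGGAATt
MCU, SiREV1#1: tgcagagttacCAGGAATc
VASP, SiREV1#1: tgAagactACaCAGGAATg
ARHGDIA, SiREV1#2: GacTgAcgGacGGACGACg
TTLL12, SiREV1#2: cttatgcAtCaGGACGACc
CACNG4, SiREV1#2: GCtgaAccGacGGACGACc
LSR, SiREV1#2: GCcagccAGCaGGACGACT
In GRCh38 coordinates the 3′ UTR sites lay at chr2:177219732-177219750 in HNRNPA3, chr16:21656911-21656929 in METTL9, chr10:72886310-72886328 in MCU and chr19:45526266-45526284 in VASP, all on the plus strand, and at chr17:81868833-81868851 in ARHGDIA and chr22:43167518-43167536 in TTLL12, both on the minus strand. The coding sites were in exon 4 of 4 of CACNG4 (chr17:67030977-67030995) and exon 7 of 9 of LSR (chr19:35266862-35266880), on the plus strand. Identical bases numbered from 7 in MCU to 13 in LSR, of 19. LSR held 4 coding matches to GGACGAC and CACNG4 held 2. Of the 15 genes with the smallest p lower after SiREV1#1, 9 held CAGGAAT in the 3′ UTR or coding sequence, where 28.1% of all genes did, and 9 of the 15 higher held GGACGAC, where 9.97% of all genes did. EI24, RCN1 and MMGT1, the first 3 of the former, held none in this transcript.

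Functional lists were described by how many of their tested members passed, beside the 36.5% of all genes. Inflammatory genes had the highest share called. Of 29 NF-kB, cytokine and chemokine genes, which serve the signalling that recruits immune cells, 20 were lower and 1 was higher after SiREV1#1 (72.4% called), with a median difference of -0.73 against -0.065 for all genes. The gene for CXCL8, the neutrophil chemokine interleukin 8, was at 6.50, 66.5 and 63.8 FPKM after SiREV1#1, 35.4, 454 and 461 after SiREV1#2 and 19.3, 320 and 351 after scramble. Replicate 1 was lower than replicates 2 and 3 in all groups, so the groups overlapped, but within each replicate number SiREV1#1 was the lowest (-2.62, SE 0.18, adjusted p = 8e-05 by limma). CXCL3 (-1.89), CXCL2 (-1.28) and CXCL1 (-1.23), chemokines for the same receptor, and CCL20 (-1.68) were lower too, with adjusted p from 0.00021 to 0.0037 by limma.

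The direction came from both siRNAs in different members. Over the list the median log2 difference from scramble was -0.159 after SiREV1#1 and 0.458 after SiREV1#2. Over all genes these medians were -0.068 and 0.001, so the typical member lay further from scramble after SiREV1#2. CXCL3 was at 3.27, 12.3 and 12.7 FPKM after SiREV1#1, with SiREV1#2 at 12.3, 52.4 and 54.2 and scramble at 9.15, 56.1 and 53.1. BIRC3, an inhibitor of apoptosis that NF-kB induces, was at 5.72, 43.4 and 41.1 after SiREV1#1, 14.4, 121 and 126 after SiREV1#2 and 8.48, 51.1 and 49.7 after scramble, with SiREV1#2 above the others within each replicate number. NFKB2 and RELB, subunits of the noncanonical NF-kB pathway, differed by -0.72 and -0.73, and the inhibitor NFKBIE by -0.86. RELA (-0.05), NFKB1 (-0.22) and NFKBIA (-0.29) did not pass. NFKBIB, an inhibitor of NF-kB, was the member higher after SiREV1#1 (0.66, adjusted p = 0.0096 by limma). IL11, a cytokine of the interleukin 6 family, had the largest difference of the list at -3.11, with 0.59, 1.3 and 0.98 FPKM after SiREV1#1 and 0.94, 46.7 and 49.3 after SiREV1#2, which are nearly alike in replicate 1. The list depended on the block: without it 0 members were lower and 0 higher in limma, with adjusted p = 0.4 for CXCL8, 0.28 for CXCL3 and 0.56 for BIRC3, and with replicates 2 and 3 only 27 were lower.

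**Figure D4:**
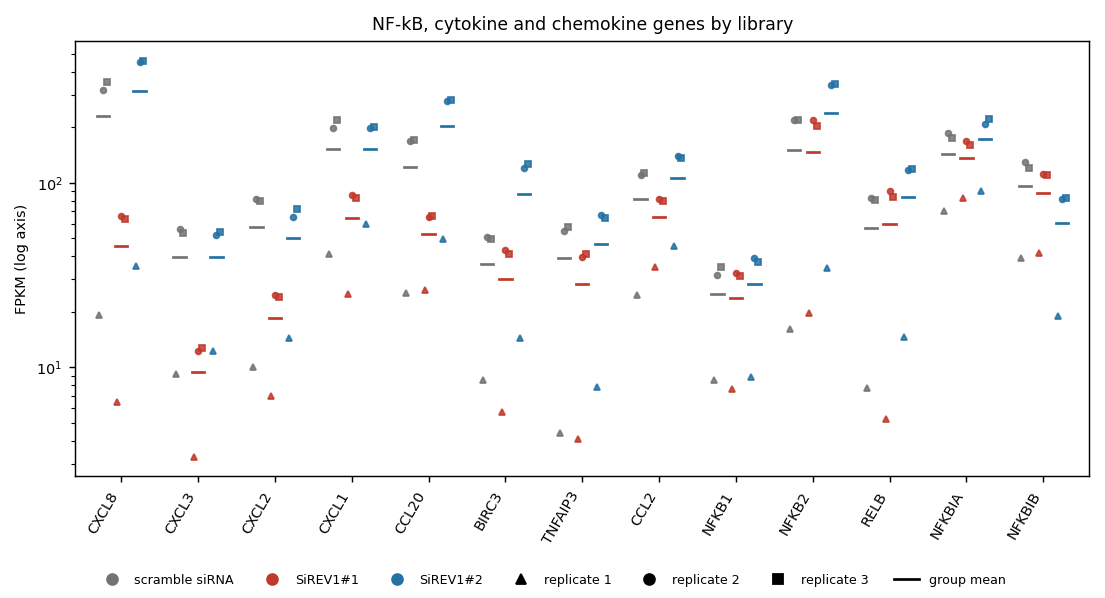
FPKM on a log axis of 13 genes of the NF-kB, cytokine and chemokine list by library, in grey for scramble siRNA, red for SiREV1#1 and blue for SiREV1#2, with triangles for replicate 1, circles and squares for replicates 2 and 3, and lines for group means. CXCL8 runs from 6.50 to 66.5 after SiREV1#1 and from 35.4 to 461 after SiREV1#2, and replicate 1 is the lowest of its group for the genes drawn.

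Growth factor and developmental pathways held more genes lower than higher, as did all genes without further scaling (21.1% against 15.3%). Of 41 genes of EGFR, RAS and their feedback loop, 14 were lower and 2 higher after SiREV1#1, and the 39% called was near the 36.5% of all genes. MAPKAPK2, the kinase activated by p38, was at 4.35, 6.58 and 6.55 FPKM after SiREV1#1 and 31.8, 28.0 and 28.0 after SiREV1#2, with scramble at 31.3, 38.0 and 36.2. IER3, an immediate early gene, differed by -1.88, the ligand gene EREG by -1.58 and DUSP6, a phosphatase that dampens ERK, by -1.0. ERBB3, a receptor of the same family as EGFR, was higher, at 48.5, 17.7 and 18.1 against 33.5, 5.21 and 5.10. EGFR itself (-0.26) did not pass. Dropping the block left 2 members of the list lower and 0 higher.

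Of 25 genes of transforming growth factor beta (TGF-beta) and BMP signalling, 8 were lower and 4 higher after SiREV1#1 (48% called). Receptors led the lower side. ACVR1, a type I receptor for BMPs, was at 2.47, 2.44 and 2.43 FPKM after SiREV1#1, where it barely varied, and at 13.3, 21.4 and 20.7 after SiREV1#2. TGFBR2, the type II receptor for TGF-beta, was at 31.7, 19.8 and 21.0 against 74.8, 125 and 119, with scramble between them at 54.0, 58.6 and 63.5. ID3, a BMP target, was higher by 0.93. The fit without the block gave 2 lower and 0 higher. Among 34 WNT and Hippo genes 10 were lower and 2 higher (35.3% called, near that of all genes). The receptor FZD6 (-1.98), the RAS-association protein RASSF3 (-1.92) and the Hippo scaffold SAV1 (-1.23) were lower, whereas the coreceptor LRP5 (1.51) and the transducer DVL3 (1.47) were higher, and the latter pair was below scramble after SiREV1#2 (-1.10 and -0.96). Of the WNT and Hippo list 3 were lower and 1 higher without the block.

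Apoptosis regulators were split between the sides. Of 30 tested, 11 were lower and 5 higher after SiREV1#1. CASP9, the initiator caspase of the mitochondrial pathway, was at 5.05, 10.0 and 9.37 FPKM after SiREV1#1 and 0.95, 1.45 and 1.51 after SiREV1#2 (1.95, SE 0.13, adjusted p = 8e-05 by limma). Scramble libraries held 3.85, 5.93 and 7.21 FPKM for CASP9, above every SiREV1#2 library. BAK1 and BAX, which permeabilise mitochondria, were higher after SiREV1#1 by 1.20 and 0.77, and PMAIP1, a BH3-only activator, was lower (-1.87). Of the apoptosis list 1 member was lower and 1 higher without the block. Of 28 p53 targets 10 were higher and 3 lower. BTG2 (1.18), FAS (1.16), FDXR (1.04) and CDKN1A (0.96) were higher, but MDM2, the ubiquitin ligase for p53, was lower (-1.06), at 3.76, 14.1 and 14.5 FPKM against 13.4, 26.0 and 25.0. No p53 target passed in either direction without the block, with adjusted p = 0.64 for BTG2, 0.059 for FAS and 0.36 for MDM2 by limma.

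The actin and sterol lists leaned to the higher side. Of 38 genes of the actin cytoskeleton and its signalling, 15 were higher and 4 lower after SiREV1#1. ACTB, cytoplasmic beta-actin, which is often used as a reference gene, was at 4095, 3726 and 3593 FPKM after SiREV1#1, 1307, 1286 and 1288 after SiREV1#2 and 2771, 2855 and 2701 after scramble. The groups of ACTB were fully separated in the order SiREV1#1, scramble, SiREV1#2, and the difference was 1.55 (SE 0.12, adjusted p = 0.00013 by limma). ACTN4, an actin crosslinker, was higher by 1.23, the tropomyosin TPM4 by 0.91, ARPC2 of the actin nucleator ARP2/3 by 0.71 and CDC42 by 0.70. CFL2, an actin-severing cofilin, was lower (-1.39), and RHOA (0.03) and RAC1 (-0.16) did not pass. Counts for the list were 4 higher and 2 lower without the block, and 9 and 2 without SiREV1#2 replicate 3.

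Of 34 sterol and fatty acid synthesis genes, 14 were higher and 6 lower after SiREV1#1 (58.8% called), with a median of 0.24. SREBF2, the transcription factor that drives cholesterol synthesis, was at 54.1, 47.1 and 48.6 FPKM against 30.6, 27 and 28.3, and scramble lay between at 37.7, 36.3 and 36.9. ACACA, the carboxylase that starts fatty acid synthesis, differed by 0.71 and LSS, which closes the sterol rings, by 0.79. The genes for HMGCS1 (-1.50), IDI1 (-0.71) and ACAT2 (-1.13), which belong to the same program, were lower. MVD, an enzyme of the mevalonate pathway, was higher (1.49). Leaving out SiREV1#2 replicate 3 gave 5 higher and 3 lower, and leaving out the block 1 and 1.

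Proteins of RNA silencing were measured since both reagents act through them. Of 23, 8 were lower after SiREV1#1 and 0 higher (34.8% called, near the 36.5% of all genes). DCP2, the catalytic decapping enzyme, was at 0.60, 1.60 and 1.68 FPKM after SiREV1#1 and 4.58, 8.02 and 7.68 after SiREV1#2, with scramble at 2.18, 2.43 and 3.15, so the siRNA groups lay on opposite sides of scramble. DDX6, a helicase of processing bodies, was at 6.68, 6.83 and 7.30 against 14.7, 26.0 and 26.3. AGO2, the Argonaute that cleaves targets, was at 3.46, 3.40 and 3.79 against 2.82, 3.55 and 3.43 and did not pass (0.10). Of the silencing proteins 2 were lower without the block. Of 28 genes of interferon and RNA sensing, 10 were lower and 4 higher, with IFITM2 (1.68) and IFITM3 (1.33), antiviral membrane proteins that share much of their sequence, higher and the transcription factor IRF1 (-0.92) lower, and 0 passed in either direction without the block.

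**Figure D5:**
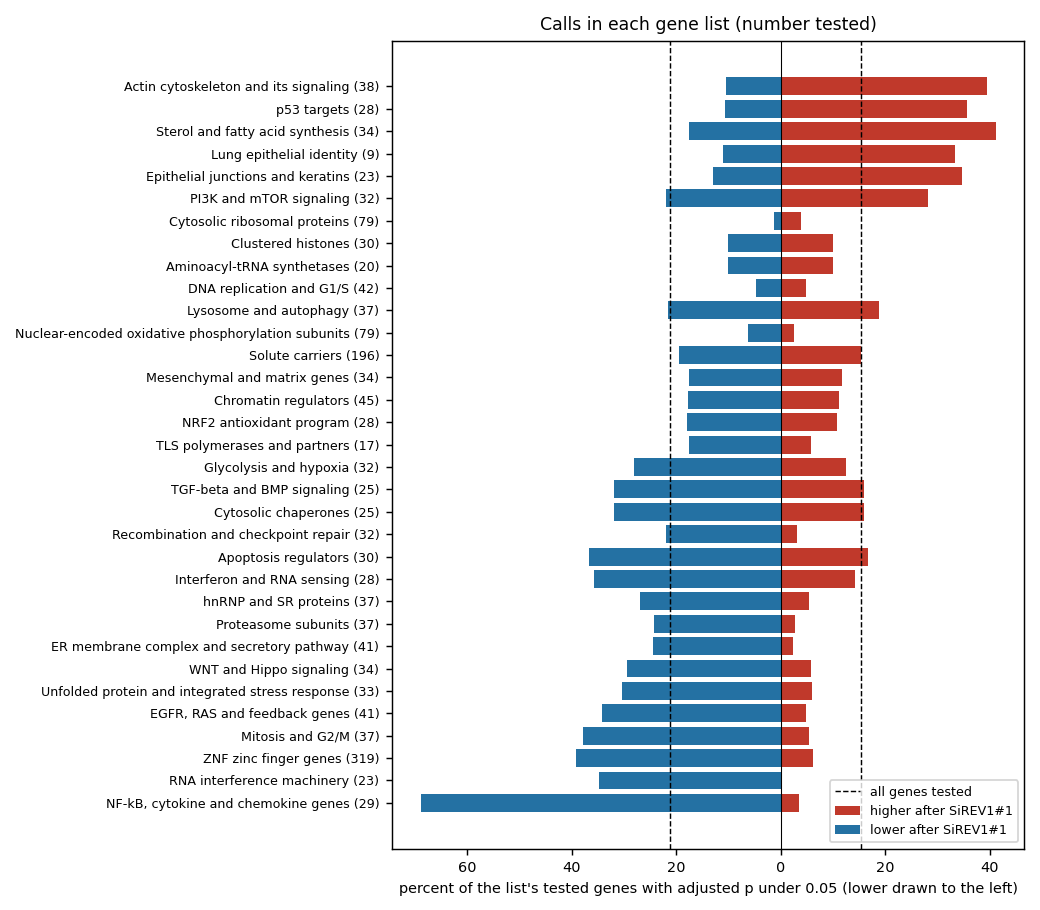
Percent of the tested genes of each list (number in brackets) with an adjusted p under 0.05, with those higher after SiREV1#1 to the right in red and those lower to the left in blue, and dashed lines at the 15.3% and 21.1% of all genes. NF-kB, cytokine and chemokine genes reach furthest left (20 of 29), and ribosomal proteins (4 of 79) are among the shortest bars.

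Cell cycle and DNA repair genes, which are closer to the function of REV1, had shares called from 9.52% for replication genes to 43.2% for mitotic genes. Of 42 DNA replication and G1/S genes, 2 were higher and 2 lower after SiREV1#1, and with replicates 2 and 3 only 17 were higher and 5 lower. Their median difference from scramble was -0.55 after SiREV1#1 and -0.40 after SiREV1#2. CDK6, a G1 kinase, was lower (-1.06) and E2F2, an activator of S-phase genes, higher (0.79). Of 37 mitotic genes 14 were lower and 2 higher. CDK1, the mitotic kinase, was at 14.6, 30.0 and 30.8 FPKM after SiREV1#1 and 37.9, 74.2 and 71.6 after SiREV1#2, and AURKA differed by -1.05, but CDC20, the activator of the anaphase-promoting complex, was higher (1.14). Among 17 TLS polymerases and partners 4 passed, with POLD3, a subunit shared by polymerases delta and zeta, lower (-1.10) and POLH, polymerase eta, higher (0.47). WDR48 and RAD18, the ubiquitin ligase for PCNA, were lower (-0.51 and -0.34). The RAD18 groups overlapped (adjusted p = 0.042 by limma), and its call was lost in 16 of 22 alternative settings, that of WDR48 in 9. RAD18 was below scramble after SiREV1#1 (-0.75, adjusted p = 0.0033) and after SiREV1#2 (-0.42, adjusted p = 0.047, both by limma). Of 32 recombination and checkpoint genes 7 were lower and 1 higher, led by NBN of the MRN complex (-0.92). Without the block 2 mitotic genes, 0 TLS genes, 1 recombination gene and 0 replication genes were lower, and the only gene of these lists higher was E2F2 (adjusted p = 0.042 by limma).

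Large complexes and gene families ranged from 5.06% called for ribosomal proteins to 45.5% for zinc finger genes, beside 36.5% of all genes. Of 79 cytosolic ribosomal proteins 3 were higher and 1 lower (5.06% called), RPS28 foremost, and of 79 nuclear-encoded subunits of oxidative phosphorylation 2 were higher and 5 lower (8.86%). SDHD, a membrane anchor of complex II, was at 20.3, 32.3 and 32.6 FPKM after SiREV1#1 against 61.5, 63.6 and 68.5. With replicates 2 and 3 only, 36 ribosomal proteins were higher and 4 lower, and 43 subunits of oxidative phosphorylation were higher and 9 lower, which turned the direction of the latter. Zinc finger genes of the ZNF family, the largest list, had 125 of 319 lower and 20 higher, with a median of -0.28. ZNF770 was at 2.60, 2.33 and 2.28 FPKM after SiREV1#1 against 10.5, 26.0 and 24.9, while ZNF598, a ubiquitin ligase for collided ribosomes, was at 22.9, 24.4 and 24.3 against 11.9, 8.29 and 8.38. Dropping SiREV1#2 replicate 3 left 51 ZNF genes lower and 9 higher, and dropping the block 10 and 2.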

How the data were processed

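RNA-seq of A549 cells was read on the BGISEQ-500 platform. The authors deposited FPKM values and non-whole estimated counts per gene for each of 9 libraries. The submitters' processing notes name StringTie 1.3.3b and the build hg38, and the aligner is not given in the sources used here. Counts of SiREV1#2 replicate 3 equalled those of replicate 2 at 100.0% of genes (FPKM at 10.4%), so that column was not used, and the other counts were rounded for the count models. Libraries were grouped by title. Genes with a mean FPKM over 1 were fitted on log2(FPKM + 1) with limma 3.58.1 (trend) over all 9 libraries, with group and replicate number, and p-values were adjusted by Benjamini-Hochberg over 11429 genes. Fold changes understate low genes on this scale. The pairing rests on the data: same-numbered libraries deviated together (correlations 0.734 to 0.929) through replicate 1, while the difference of replicates 2 and 3 correlated at only 0.175, -0.218 and -0.110 between groups. edgeR 4.0.16 and DESeq2 1.42.0 on counts were alternatives. The limma and edgeR fits with the block were tried on simulated data, and DESeq2 was not.

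Named genes were, on each side, the 15 smallest p among calls over 2-fold with 3 of 3 pairs alike, up to 3 called members per list and side, REV1 and the genes that the study selected. Other list members, and those named for their size, were chosen after their values were seen. Members and lists were chosen with earlier results of these data known. Sites were read from GENCODE 29 transcripts with words for the siRNA strands in the methods, taking the guide as the reverse complement of the listed strand. Passenger words and GC ranges were added after seeing the data. Wilson intervals cover counting error only. Results of some list members are not reported here.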

Additional observations from a re-analysis of the deposited data

How the results depend on the processing

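The replicate block mattered most. Without it, the number of genes differing was 595 (256 higher and 339 lower after SiREV1#1, 150 and 168 over 2-fold), and edgeR without it gave 96 (35 and 61, all over 2-fold). edgeR with the block gave 2503 (1243 and 1260; 614 and 578 over 2-fold), without a filter on low counts 2439 (1262 lower; 595 and 587), and DESeq2 2922 (1490 lower; 585 and 568). Only the 6 siRNA libraries gave 2469 (1018 and 1451), replicates 2 and 3 only 7869 (3693 and 4176), an adjusted p under 0.01 2122 (899 and 1223), and a pseudocount of 0.1 459 and 559 genes over 2-fold. Leaving out each library in turn gave 2039 to 6001 genes differing, 867 to 2880 higher, 1172 to 3121 lower, 261 to 402 over 2-fold higher and 290 to 446 over 2-fold lower. Median-of-ratios scaling moved the median difference by 0.064 and quantile normalization by 0.059. With either, more genes over 2-fold were higher than lower after SiREV1#1. REV1 passed under no setting, from -0.24 to -0.05 over the libraries left out. On counts its difference was 0.070 in edgeR without the block, 0.002 in edgeR with it and -0.012 in DESeq2, so its sign changed. Of the 192 genes chosen by the naming rule and called, 117 lost the call without the block and 75 kept it. No direction could change there, since the groups hold the same replicate numbers and the differences stay the same. The cause of these changes was not tested.

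The SiREV1#1 share of 35.5% became 78.6% (40.4% of all genes) with a 6-base match, 23.1% in coding sequence, 27.5% in 3′ UTRs of 500 to 2000 bases and 24.4% at any size. The SiREV1#2 share of 8.97% became 16.6% (4.14% of all), 42.5%, 6.43% and 3.39%. With 3′ UTR and coding sequence together, added after seeing the data, the shares were 51.7% (28.1% of all genes) and 48.5% (9.97%).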

Other observations

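In 130 genes the siRNAs differed over 2-fold in replicates 2 and 3 but by less than 0.25 (log2) in replicate 1, among 777 genes over 2-fold the same way in replicates 2 and 3. Of the 130, 73 were higher and 57 lower after SiREV1#1, and 124 were among the genes called by limma with the block. PGD, an enzyme of the pentose phosphate pathway, was at 796 FPKM after SiREV1#1 and 693 after SiREV1#2 in replicate 1, at 305 and 33.8 in replicate 2 and at 290 and 33.4 in replicate 3, with scramble at 793, 257 and 250. CPEB2, which controls translation of polyadenylated transcripts, was at 4.80 and 5.51 in replicate 1 and at 9.18 and 58.8 in replicate 2. FOSB, a subunit of the AP-1 transcription factor, was at 0.33 and 0.49 in replicate 1 and at 4.42 and 23 in replicate 2. HMGCS1, which makes HMG-CoA for sterol synthesis, was at 68.0 and 72.2 in replicate 1 and at 25.2 and 124 in replicate 2. The genes were chosen after their values were seen.

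In 135 other genes the reverse held, with a difference over 2-fold in replicate 1 and under 0.25 in both of the others. Replicate 1 of SiREV1#1 was also the shallowest of the libraries with counts of their own, at 13059082 fragments. What distinguishes replicate 1 is not given in the labels, and its part in these differences was not tested.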
